A study of Mus musculus with 11 samples.

Results

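The interleukins are cytokines, signalling proteins passed between immune cells, endothelium, fibroblasts and hepatocytes, and each acts through receptor chains that are combined and shared between several ligands. The rows of the deposited mouse liver table whose gene symbol begins with Il and a digit are described here. They number 69 of 31280 genes, of which 25 encode ligands, 37 receptor chains and 5 receptor antagonists, decoys or binding proteins. The remaining rows are Il1bos, a non-coding transcript opposite Il1b, and Il4i1, an amino acid oxidase that bears the name only because interleukin 4 induces it. Rows were assigned to these roles by hand.

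The 5 MCD libraries came from livers of wild-type C57BL/6 mice that ate a methionine- and choline-deficient diet for 8 weeks and received water by gavage. The 6 limonin libraries came from wild-type C57BL/6 mice that ate that diet for 8 weeks and received limonin, a bitter triterpenoid of citrus seeds, at 100 mg/kg by gavage for 4 weeks. The diet blocks export of fat from the liver and is used as a model of steatohepatitis, although mice on it lose weight rather than becoming obese. The sources used here do not give sex or age. No complete-diet group was analysed here, and the differences below set limonin against water on the deficient diet.

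Interleukins signal in a few ways. Members of the IL-1 family bind receptors with a Toll-like domain and act through MyD88 and IRAK kinases on NF-kappaB, and IL-17 receptors use the adaptor Act1. Most other interleukin receptors have no enzyme of their own and act through JAK kinases and STAT transcription factors. In the liver, IL-1 and IL-6 are known for making hepatocytes secrete acute phase proteins, and IL-10 for restraining macrophages. IL-34 acts through the CSF1 receptor.

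Levels are in FPKM, fragments per kilobase of transcript scaled to library depth, which can be compared between genes because transcript length is divided out. Depths estimated from the steps between low values were 15450000 to 19560000 fragments for a library. All 10 hepatocyte markers looked up passed the filter, with summed levels of 37389 to 47456 FPKM in MCD and 35678 to 55672 FPKM with limonin. A gene was tested where at least 5 of the 11 libraries reached 1 FPKM, and called where limma gave an adjusted p under 0.05, with the Benjamini-Hochberg method over all 10489 genes tested. Fold changes are differences in log2(FPKM + 1), limonin minus MCD, which understate the change of low genes.

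Of the 69 interleukin genes, 21 passed this filter and 48 did not. With limonin 8 of the 21 fell, 2 rose and 11 were not called. Over all genes tested, 18.7% were called lower and 7.24% higher. Of all calls 27.9% were higher, against 48.1% after median-ratio scaling and 52.9% after quantile normalization. Of the interleukin genes 7 were lower and 2 higher after the first of these scalings and 6 and 2 after the second. Summed FPKM over all genes was 464184 to 471623 in MCD and 404050 to 462665 with limonin, without overlap. When libraries were scaled to equal summed FPKM, 5 interleukin genes were lower and 2 higher, and Il4ra, Il2rg and Il11ra1 lost their calls. The filter bears on these counts, since 3 of the 8 that fell had fewer than 5 limonin libraries at 1 FPKM and so depended on their MCD values to be tested. These were Il1rn, Il3ra and Il2rg. Of the 2 that rose, 1 (Il1rap) had fewer than 5 MCD libraries at 1 FPKM and depended on its limonin values. Those that fell were the receptor chains Il10ra, Il10rb, Il3ra, Il4ra, Il2rg and Il11ra1, the ligand Il34 and the antagonist Il1rn. Those that rose were Il6ra and Il1rap, which encode receptor chains for IL-6 and for the IL-1 family. The median log2 fold change was -0.20 over the 21 and -0.07 over all genes tested. In bulk liver, fewer cells of a type and less RNA per cell cannot be told apart.

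**Figure D1:**
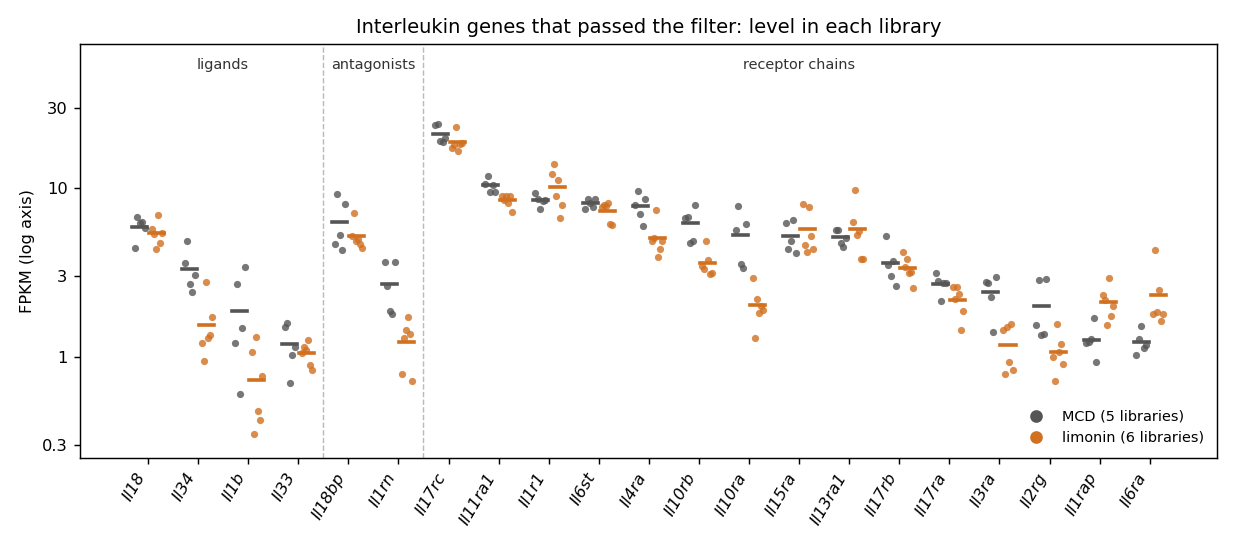
Level of each of the 21 interleukin genes that passed the filter, in FPKM on a log axis, with 1 point per library and a bar at the group mean. Il10ra, Il1rn and Il11ra1 have no overlap between groups with limonin lower, and Il6ra has none with limonin higher.

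In 3 of the 21, every limonin library lay below every MCD library (Il10ra, Il1rn and Il11ra1), and in 1, Il6ra, every limonin library lay above. Among all genes tested these shares were 8.33% and 2.97%. MCD 2 was the highest of the 11 libraries in 4 of the 8 genes that fell, MCD 5 in 3 and MCD 1 in 1. Within the limonin group, limonin 3 was the highest library in 5 of these 8 genes. Limonin 2 was the lowest of all libraries in 4 of them.

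**Figure D2:**
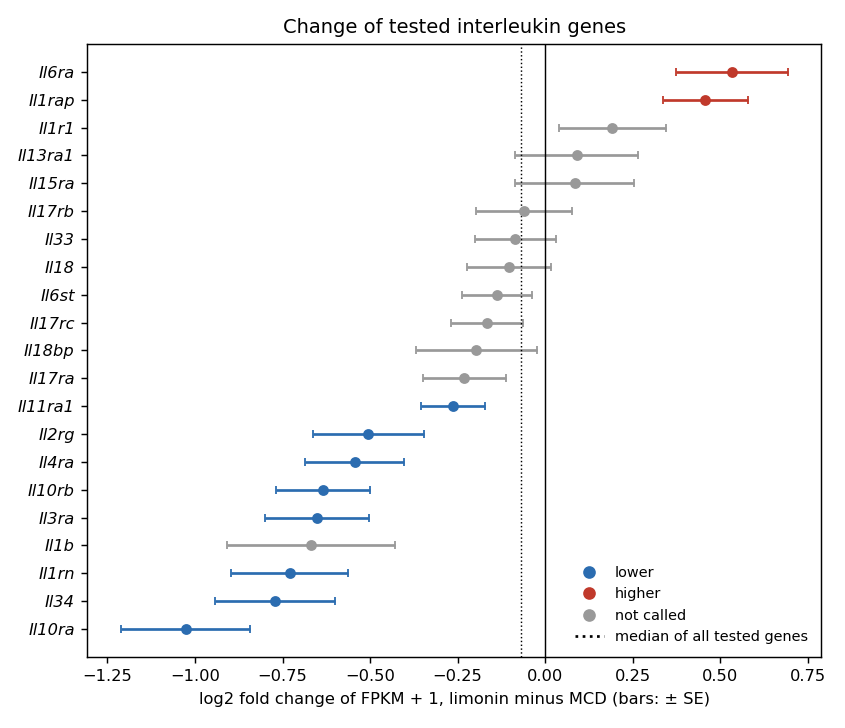
Log2 fold change of FPKM + 1, limonin minus MCD, for the 21 tested interleukin genes, with bars of ± SE and the median of all tested genes as a dotted line. Il10ra has the lowest value, -1.03, and Il6ra the highest, 0.53.

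Promoters are shown for a pair of genes from each direction, so that the sequence before genes that moved oppositely can be compared. Each is the 250 bases before the transcription start (RefSeq, GRCm38.p6, written 5′ to 3′ on the strand of the gene), with the matches to the motifs searched in capitals. Il1rn has 3 listed starts, and the one shown is the one with a match. The regions are chr2:24336610-24336859 (plus strand) for Il1rn, chrX:101268256-101268505 (minus strand) for Il2rg, chr3:89913197-89913446 (minus strand) for Il6ra and chr16:26581455-26581704 (plus strand) for Il1rap.
Il1rn: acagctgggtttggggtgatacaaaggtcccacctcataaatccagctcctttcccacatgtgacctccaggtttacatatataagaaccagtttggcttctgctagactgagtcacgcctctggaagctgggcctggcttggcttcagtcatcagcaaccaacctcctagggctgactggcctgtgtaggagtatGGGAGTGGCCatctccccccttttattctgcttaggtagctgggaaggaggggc
Il2rg: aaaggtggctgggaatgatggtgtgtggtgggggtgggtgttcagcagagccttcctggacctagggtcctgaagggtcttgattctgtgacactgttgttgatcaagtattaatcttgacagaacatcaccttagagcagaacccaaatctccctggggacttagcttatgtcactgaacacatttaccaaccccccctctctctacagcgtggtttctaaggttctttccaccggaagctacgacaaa
Il6ra: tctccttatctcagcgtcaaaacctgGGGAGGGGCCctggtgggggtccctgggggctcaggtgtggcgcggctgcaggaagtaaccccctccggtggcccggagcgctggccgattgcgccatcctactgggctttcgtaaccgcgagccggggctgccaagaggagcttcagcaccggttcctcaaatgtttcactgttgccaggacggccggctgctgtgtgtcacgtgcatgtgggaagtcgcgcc
Il1rap: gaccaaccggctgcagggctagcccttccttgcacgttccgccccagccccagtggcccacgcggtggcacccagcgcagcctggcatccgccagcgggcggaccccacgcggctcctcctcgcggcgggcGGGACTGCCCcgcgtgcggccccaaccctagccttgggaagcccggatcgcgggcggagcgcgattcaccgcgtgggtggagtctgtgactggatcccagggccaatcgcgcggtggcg

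The motifs searched on both strands were TTCNNNGAA for STAT factors, GGGA and CC separated by 4 bases of any kind for NF-kappaB, GAGGAAG for PU.1 and TTGCNNAA for C/EBP. Of the 21 tested genes, 17 had a promoter in the RefSeq table, with 23 starts between them. The capitals above are matches to the NF-kappaB letters, at 54 to 45 bases before the start of Il1rn, 224 to 215 bases before that of Il6ra and 119 to 110 bases before that of Il1rap. This match was in both genes that rose, with 2 promoters. It was in 1 of the 5 genes that fell and had a promoter (1 of 8 promoters), and in 2 of 10 genes not called (2 of 13 promoters). The same letters were present in 17.6% of all 32851 promoters of this length. Whether the match goes with direction was not tested. The STAT letters were in 0 of the 23 promoters of tested members and in 7.02% of all promoters. The C/EBP letters were found in Il3ra among the genes that fell and in Il18bp, Il1r1 and Il33 among those not called, against 9.56% of all promoters. PU.1 letters were found in Il11ra1 and Il15ra, against 10.6% of all promoters. Promoters of Il10ra, Il10rb and Il34, which also fell, were not analysed here. These matches describe letters in a short window and show no binding.

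Among the ligands, Il34 fell, and the other 3 tested, Il18, Il33 and Il1b, were not called. Il34 encodes a cytokine that shares its receptor with CSF1 (chromosome 8, 110741829 to 110805924, GRCm38). Its level was 3.58, 4.83, 2.70, 2.41 and 3.06 FPKM in MCD 1 to 5, and 0.938 to 2.76 FPKM with a median of 1.31 in the limonin group. The groups overlapped through limonin 3, and the other 5 limonin libraries lay below every MCD library. On the log2 scale it fell by 0.77 ± 0.17 (SE; adjusted p = 0.0072). Csf1, the other ligand of that receptor, fell from a mean of 5.90 ± 1.58 to one of 2.71 ± 0.666 FPKM (SD over 5 and 6 libraries, as for all means below), and the receptor gene Csf1r from 14.1 ± 5.75 to 6.37 ± 0.910 FPKM. In both, every limonin library lay below every MCD library, and their log2 fold changes were -0.89 ± 0.17 and -0.96 ± 0.20 (adjusted p = 0.00338 and 0.00588).

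Il1b encodes interleukin 1 beta, made by activated macrophages as a precursor (chromosome 2, 129364570 to 129371139). It measured 1.21, 2.69, 0.599, 1.47 and 3.38 FPKM in MCD 1 to 5 and 0.346 to 1.31 FPKM with limonin, with a median of 0.618. MCD 1 and MCD 3 lay within the limonin range, and MCD 2 and MCD 5 were the highest. Its log2 fold change of -0.67 ± 0.24 missed the threshold (adjusted p = 0.0564). It was called lower without MCD 3 (0.0154) or limonin 3 (0.0388). Il18 encodes the inflammasome-activated interleukin 18. Its means were 5.90 ± 0.903 FPKM in MCD and 5.42 ± 0.879 FPKM with limonin (adjusted p = 0.546). The alarmin gene Il33, whose product is released from damaged cells, had means of 1.19 ± 0.363 and 1.04 ± 0.156 FPKM, with an adjusted p of 0.617.

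Summed over the 25 ligand genes, levels were 14.4 to 21.6 FPKM in MCD and 9.37 to 13.2 FPKM with limonin, so the sums did not overlap in the deposited FPKM. The lowest MCD sum was in MCD 3 and the highest limonin sum in limonin 3, whose totals over all genes were 471475 and 412782 FPKM. As a share of that total limonin 3 lay above MCD 3, so the gap depends on scaling. The 37 receptor chains summed to 86.6 to 108 FPKM in MCD and 71.6 to 91.5 FPKM with limonin. The 5 antagonists, decoys and binding proteins summed to 6.22 to 12.3 FPKM and 5.21 to 8.59 FPKM. Receptor mRNA exceeded ligand mRNA in every library. No test was made on the sums.

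Of the antagonists, Il1rn fell and Il18bp was not called. Il1rn encodes the IL-1 receptor antagonist, which occupies the receptor without signalling (chromosome 2, 24336853 to 24351494). It measured 3.66, 2.62, 1.85, 1.80 and 3.65 FPKM in MCD 1 to 5 and 0.717 to 1.71 FPKM with limonin, with a median of 1.33. The groups did not overlap, limonin being the lower, at a log2 fold change of -0.73 ± 0.17 and an adjusted p of 0.00822. Il18bp, which binds and neutralizes interleukin 18, had means of 6.31 ± 2.22 and 5.21 ± 0.967 FPKM and an adjusted p of 0.422. Il18bp overlaps Numa1 on the opposite strand, as Il17rb does Actr8 and Il1b the antisense Il1bos, which was scarce (means of 0.045 and 0.0175 FPKM). Below the filter, Il16 so overlaps the more abundant Stard5 (38.1 and 40.3 FPKM), and Il31 overlaps Lrrc43 (0.027 and 0.228 FPKM). Reads in any shared bases are uncertain in the same way as described for Il1rap below. The decoy receptor gene Il1r2 did not pass the filter, at 0.136 to 0.394 FPKM in MCD and 0.0563 to 0.241 FPKM with limonin.

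Il1rap encodes the accessory chain without which the IL-1, IL-33 and IL-36 receptors do not signal (chromosome 16, 26581704 to 26730117). Its level was 1.20, 1.21, 1.27, 1.68 and 0.923 FPKM in MCD 1 to 5 and 1.55 to 2.93 FPKM with limonin, with a median of 2.07. Limonin 3 was below MCD 4, and the other 5 limonin libraries were above every MCD library. The log2 fold change was 0.46 ± 0.12, with an adjusted p of 0.0162. An antisense gene, Gm20319 (chromosome 16, 26714446 to 26755502), shares 552 of its 1125 exon bases with Il1rap on the opposite strand. Gm20319 was more abundant and also rose, from 15.1 ± 2.49 to 21.2 ± 3.51 FPKM (log2 fold change 0.47 ± 0.12, adjusted p = 0.0164). The libraries mark the strand, but the sources used here do not say whether quantification used it. Without strand, reads of the shared exon bases cannot be assigned to either gene, so the rise of Il1rap is uncertain. The ligand-binding chain gene Il1r1 was not called, at 8.52 ± 0.653 FPKM in MCD and 10.1 ± 2.75 FPKM with limonin (adjusted p = 0.372). Il1r1 ran from 6.66 to 13.9 FPKM with limonin, a range that enclosed all 5 MCD values. Without both limonin 5 and 6, its 2 lowest limonin libraries, it was called higher (log2 fold change 0.39, adjusted p = 0.033). That pair was chosen after seeing the data.

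Il6ra encodes the ligand-binding chain of the IL-6 receptor (chromosome 3, 89864059 to 89913196). It measured 1.02, 1.28, 1.52, 1.12 and 1.16 FPKM in MCD 1 to 5 and 1.64 to 4.27 FPKM with limonin, with a median of 1.82. Limonin 2 was far above the other limonin libraries, and all 6 were above every MCD library. The log2 fold change was 0.53 ± 0.16, with an adjusted p of 0.027. That call was lost without MCD 1 (adjusted p = 0.0625), MCD 2 (0.0589), MCD 5 (0.0529) or limonin 4 (0.0511), which left 1 interleukin gene called higher in place of 2. With no filter it was lost too (0.0789). Il6st encodes gp130, the signalling chain shared by the IL-6 family. It was not called, at 8.12 ± 0.506 and 7.33 ± 0.969 FPKM (adjusted p = 0.323). Lifr, a partner of gp130 that binds leukemia inhibitory factor, rose from 2.97 to 4.22 FPKM in MCD to 4.27 to 7.42 FPKM with limonin, with no overlap between groups (log2 fold change 0.43 ± 0.13). Its adjusted p was 0.0324, and its call was lost without MCD 1, MCD 2, MCD 5, limonin 1 or limonin 4 (largest adjusted p 0.0819), and with no filter. Clcf1, a gp130 ligand, fell from 5.32 ± 2.15 to 1.93 ± 0.825 FPKM, at a log2 fold change of -1.09 ± 0.22 and an adjusted p of 0.0054. The partner genes Cntfr and Ctf1 were not called (adjusted p = 0.107 and 0.524).

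Il11ra1 encodes the IL-11 receptor chain (chromosome 4, 41699989 to 41769474). It measured 10.6, 11.9, 9.49, 10.5 and 9.51 FPKM in MCD 1 to 5 and 7.25 to 9.04 FPKM with limonin, with a median of 8.76. The groups did not overlap, but the change was small, at -0.26 ± 0.09 with an adjusted p of 0.0461. This call was lost without any of MCD 1 to 5, limonin 2, limonin 4 or limonin 6 (largest adjusted p 0.133, without MCD 2). It was lost too with no filter (0.0806), with median-ratio scaling (0.119) and with quantile normalization (0.0842). Il11ra2 is a near-identical copy, so reads could be split between the pair. Il11ra2 was listed at 0.480 ± 0.294 and 0.364 ± 0.128 FPKM.

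Both chains of the IL-10 receptor fell. Il10ra encodes the chain that binds interleukin 10 and is found mainly on leukocytes (chromosome 9, 45253837 to 45269149). It measured 5.69, 7.80, 3.54, 3.36 and 6.13 FPKM in MCD 1 to 5 and 1.29 to 2.94 FPKM with limonin, with a median of 1.95. No limonin library reached the lowest MCD library. The log2 fold change was -1.03 ± 0.18, with an adjusted p of 0.003. Il10rb encodes the second chain, which the receptors for IL-22 and interferon lambda also use (chromosome 16, 91406164 to 91425834). It measured 6.64, 6.72, 4.73, 4.86 and 7.99 FPKM in MCD 1 to 5 and 3.09 to 4.84 FPKM with limonin, with a median of 3.37. Only limonin 3 reached the MCD range, and the log2 fold change was -0.63 ± 0.14 with an adjusted p of 0.00588. Interleukin 10 mRNA itself was scarce, with Il10 at 0 to 0.160 FPKM in MCD and 0 to 0.0743 FPKM with limonin.

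Receptor chains of the IL-4, IL-2 and IL-3 groups fell as well. Il4ra encodes the chain that binds IL-4 and completes the IL-13 receptor (chromosome 7, 125552120 to 125579474). It measured 7.93, 9.58, 7.06, 5.97 and 8.58 FPKM in MCD 1 to 5 and 3.89 to 7.39 FPKM with limonin, with a median of 4.86. Limonin 3 fell within the MCD range and the other 5 limonin libraries were below it. Its log2 fold change was -0.54 ± 0.14, with an adjusted p of 0.0142, which became 0.0509 after scaling to equal summed FPKM. The other chain of the IL-13 receptor, Il13ra1, was not called, with means of 5.12 ± 0.528 and 5.75 ± 2.18 FPKM (adjusted p = 0.737). Limonin 2 held its highest value, 9.70 FPKM.

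Il3ra encodes the alpha chain of the IL-3 receptor, which signals with a beta chain encoded by Csf2rb (chromosome 14, 14346275 to 14356011). It measured 2.78, 2.73, 2.26, 1.41 and 2.97 FPKM in MCD 1 to 5 and 0.791 to 1.56 FPKM with limonin, with a median of 1.18. MCD 4 was the only MCD library within the limonin range. The log2 fold change was -0.65 ± 0.15, with an adjusted p of 0.00788. Csf2rb fell from 1.77 ± 0.818 to 0.815 ± 0.228 FPKM (adjusted p = 0.0256), and its call was lost without MCD 1, MCD 2, MCD 5, limonin 2 or limonin 6 (largest adjusted p 0.0775). Of the limonin libraries only limonin 1 (1.15 FPKM) and limonin 3 (1.04 FPKM) reached 1 FPKM, so Csf2rb depended on its MCD values to be tested. The call was lost too with no filter, with quantile normalization and with a block for the replicate number.

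Il2rg encodes the common gamma chain, shared by receptors for IL-2, IL-4, IL-7, IL-9, IL-15 and IL-21 (chromosome X, 101264378 to 101268255). It measured 1.53, 2.84, 1.34, 1.36 and 2.90 FPKM in MCD 1 to 5 and 0.716 to 1.55 FPKM with limonin, with a median of 1.03. MCD 2 and MCD 5 stood above the other MCD libraries. Limonin 3 lay above MCD 1, MCD 3 and MCD 4, and the other 5 limonin libraries lay below every MCD library. The log2 fold change was -0.50 ± 0.16, with an adjusted p of 0.0324. Without MCD 2 the adjusted p was 0.0991, and the call was also lost without MCD 5, limonin 2, limonin 4 or limonin 6 (0.0822, 0.0701, 0.0513 and 0.0591). It was lost as well with no filter (0.0886), with no filter and a pseudocount of 0.1 (0.0658) and with quantile normalization (0.0848). Il15ra, which presents IL-15 to neighbouring lymphocytes, was not called, at 5.22 ± 1.08 and 5.70 ± 1.77 FPKM (adjusted p = 0.745).

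None of the 3 tested IL-17 receptor chains was called by limma, and none had an unadjusted p or a deposited q under 0.05. Il17rc was the most abundant interleukin gene in these libraries, at 21.1 ± 2.46 FPKM in MCD and 18.7 ± 2.23 FPKM with limonin (adjusted p = 0.245). Its partner Il17ra measured 2.70 ± 0.361 and 2.17 ± 0.450 FPKM (adjusted p = 0.16). Il17rb, the chain for IL-25, measured 3.60 ± 0.969 and 3.37 ± 0.571 FPKM (adjusted p = 0.773), and the sign of its fold change depended on scaling and on MCD 1. By mean level in MCD, Il17rc was followed by Il11ra1, Il1r1, Il6st and Il4ra, the last 3 of which lay within 1 SD of a neighbour in that order.

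The 48 genes that did not pass the filter included 21 of the 25 ligands and 22 of the 37 receptor chains. Of these 48, 13 reached 0.5 FPKM in at least 1 library and 35 did not. In a fit of all 31280 genes with no filter, 3 of the 48 were called lower and 0 higher, against 5.68% and 1.32% of all genes. With a pseudocount of 0.1 in place of 1 in that fit, 4 were called lower and 0 higher, against 6.75% and 2.32% of all genes. The shares of all genes in both fits include genes that passed the filter, while the 48 all missed it. Shares among only the genes that missed the filter were not computed. Whether calls were more or less frequent in the 48 than in other such genes was therefore not tested.

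**Figure D3:**
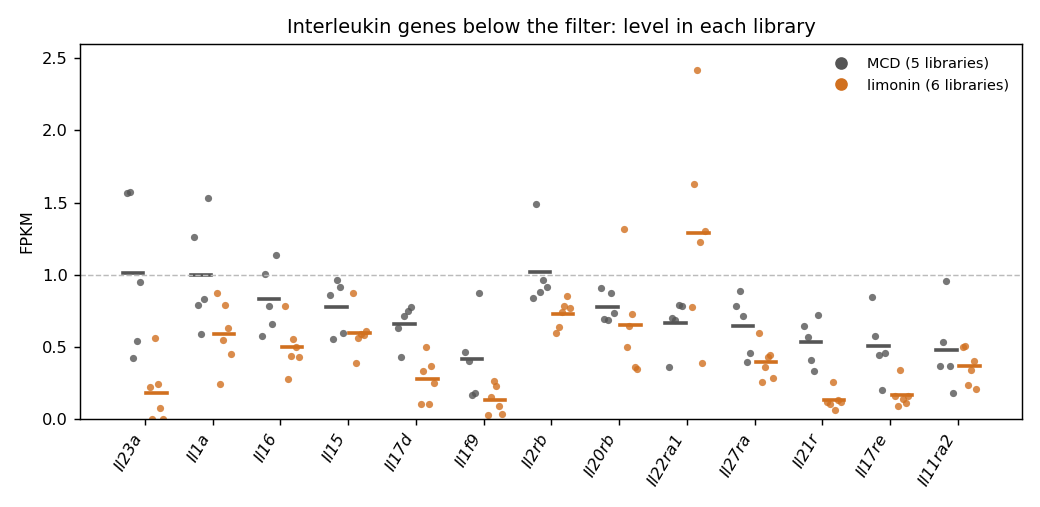
Level of the 13 interleukin genes that missed the filter but reached 0.5 FPKM in at least 1 library, with 1 point per library, a bar at the group mean and a dashed line at 1 FPKM. Il21r separates the groups, and Il22ra1 has its highest points in limonin libraries.

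The genes called lower in the fit with no filter were Il23a, Il21r and Il17d. Il23a encodes the p19 subunit of interleukin 23, which sustains IL-17-producing lymphocytes. It was at 1.57, 1.57, 0.425, 0.537 and 0.947 FPKM in MCD 1 to 5 and 0 to 0.561 FPKM with limonin, with a median of 0.146. It was listed at 0 in 2 limonin libraries, and 5 of 6 limonin libraries were below every MCD library (adjusted p = 0.0374). Il21r encodes the IL-21 receptor of lymphocytes. It measured 0.641, 0.565, 0.406, 0.329 and 0.718 FPKM in MCD 1 to 5 and 0.063 to 0.256 FPKM with limonin, with a median of 0.118 (adjusted p = 0.0176). It was the 1 gene of the 48 in which every limonin library lay below every MCD library, against 2.96% of all untested genes. None of the 48 had every limonin library above every MCD library, against 0.606%. Il17d, an IL-17 family ligand, had means of 0.660 ± 0.139 and 0.275 ± 0.154 FPKM (adjusted p = 0.038). The fourth gene, called with the pseudocount of 0.1, was Il17re, the receptor chain for IL-17C. Its means were 0.502 ± 0.236 and 0.164 ± 0.0905 FPKM (adjusted p = 0.0357).

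Il22ra1, the IL-22 receptor chain of hepatocytes and other epithelia, was higher on average with limonin. It measured 0.363, 0.702, 0.682, 0.791 and 0.784 FPKM in MCD 1 to 5 and 0.387 to 2.42 FPKM with limonin, with a median of 1.27. Limonin 5 lay near the lowest MCD library, 4 limonin libraries lay above every MCD library, and the gene was not called in the fit with no filter (adjusted p = 0.234). Il1a, the cell-bound counterpart of Il1b, was at 0.590 to 1.53 FPKM in MCD and 0.244 to 0.870 FPKM with limonin and was not called in that fit (adjusted p = 0.18). Il16, a lymphocyte attractant, had means of 0.832 ± 0.236 and 0.496 ± 0.167 FPKM, and Il15, a survival factor of natural killer cells, 0.776 ± 0.188 and 0.599 ± 0.156 FPKM. Il1f9, which encodes IL-36 gamma, had means of 0.416 ± 0.289 and 0.132 ± 0.0992 FPKM. Il2rb, a chain of the IL-2 and IL-15 receptors, had means of 1.02 ± 0.268 and 0.729 ± 0.0963 FPKM, Il27ra 0.645 ± 0.212 and 0.393 ± 0.122 FPKM, and Il20rb 0.779 ± 0.105 and 0.648 ± 0.361 FPKM. None of these 6 genes was called in either fit with no filter.

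The 35 lowest genes stayed at or under 0.421 FPKM in every library, and 24 of them were listed at 0 in at least 1. They included cytokines by which liver inflammation is often scored. Il6 was at 0 to 0.0784 FPKM in MCD and 0 to 0.0568 FPKM with limonin, where 1 fragment on its longest listed transcript is worth about 0.0224 FPKM. Il12b ran from 0 to 0.126 and from 0 to 0.179 FPKM, Il4 from 0.0333 to 0.212 and from 0.0196 to 0.252 FPKM, and Il11 from 0 to 0.0759 and from 0 to 0.123 FPKM. None of the 35 was called in either fit with no filter. Il31 was listed at 0 in 4 MCD and 3 limonin libraries and reached 0.312 FPKM in limonin 6. Receptor chains of this class were Il7r, Il12rb1, Il1rl2, Il17rd, Il18rap, Il2ra, Il18r1, Il1rl1, Il20ra, Il9r, Il12rb2, Il23r, Il5ra, Il1rapl1 and Il31ra. The other ligands were Il10, Il17c, Il27, Il7, Il17f, Il19, Il17b, Il12a, Il21 and Il1f5, and the remaining genes were Il1r2, Il13ra2, Il22ra2, Il1bos and Il4i1.

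Genes that act with these receptors were looked up in 6 lists. Of 72 genes listed, 52 were tested, 13 fell, 2 rose and 37 were not called, with a median log2 fold change of -0.15. Over all genes tested, 18.7% were called lower and 7.24% higher. Those called higher numbered 5 with median-ratio scaling, 7 with quantile normalization and 9 by the authors' deposited q. Those lower numbered 7 at equal summed FPKM, and 6 to 17 over all settings other than leaving out 1 library. Without MCD 2, 5 fell and 0 rose. Those lower numbered 8 without MCD 5, limonin 4 or limonin 6, and those higher 1 without MCD 1, MCD 5, limonin 1 or limonin 4.

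**Figure D4:**
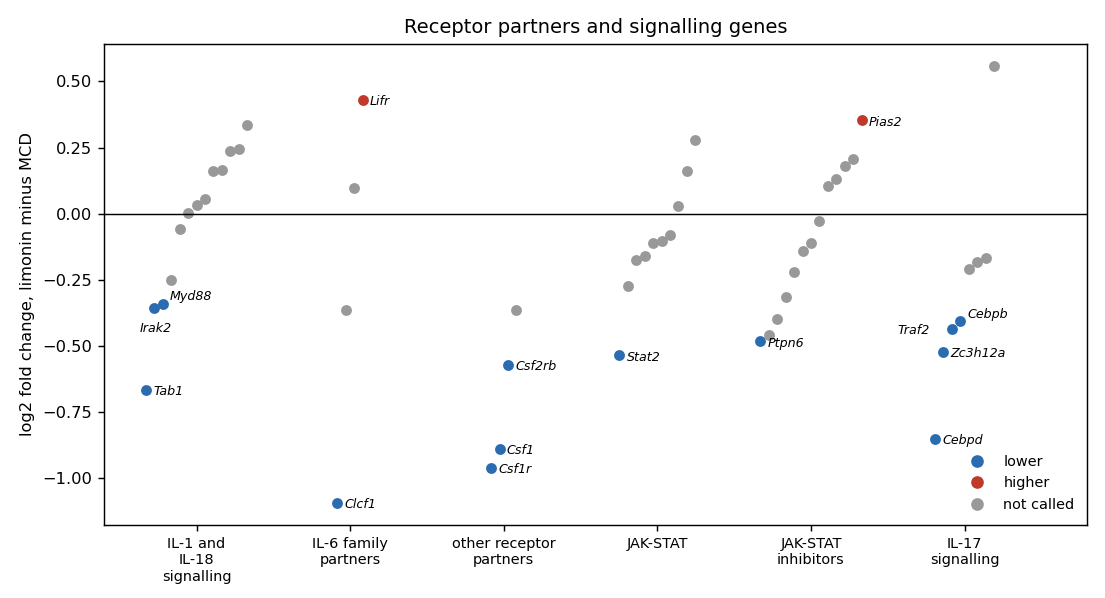
Log2 fold change of FPKM + 1, limonin minus MCD, for the 52 tested genes of 6 lists of receptor partners and signalling genes, 1 point per gene, coloured by call. The genes called are named, and Clcf1 has the lowest value, -1.09.

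In the list of IL-1 and IL-18 signalling, 3 of 13 tested genes fell and 10 were not called. Tab1, which activates the kinase TAK1, fell from 5.48 ± 1.01 to 3.08 ± 0.589 FPKM, with no overlap between groups (log2 fold change -0.67 ± 0.13, adjusted p = 0.00348). The adaptor gene Myd88 fell from 10.1 ± 0.995 to 7.79 ± 1.07 FPKM (adjusted p = 0.0273) and the kinase gene Irak2 from 6.20 ± 0.771 to 4.67 ± 0.986 FPKM (adjusted p = 0.0491). Myd88 lost its call without MCD 2, MCD 5, limonin 4 or limonin 6 (largest adjusted p 0.0844), while Irak2 kept it only without MCD 4, limonin 1 or limonin 3 (adjusted p of up to 0.121, without MCD 2). Myd88 was also not called with median-ratio scaling or quantile normalization. Neither Myd88 nor Irak2 was called with no filter, at equal summed FPKM or with a block for the replicate number.

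Of 10 tested JAK and STAT genes, 1 fell and 9 were not called. Stat2, which carries interferon signals, fell from 10.8 ± 2.31 to 7.32 ± 2.41 FPKM (adjusted p = 0.0408), a call that held only without MCD 4 or limonin 1 among the fits leaving out a library (largest adjusted p 0.103, without MCD 1). The kinase genes Jak3 and Tyk2 were not called (adjusted p = 0.121 and 0.219). Of 13 tested inhibitors of this pathway, 1 fell and 1 rose. The phosphatase gene Ptpn6 fell from 11.9 ± 2.85 to 8.13 ± 1.32 FPKM (adjusted p = 0.0282), a call lost without MCD 1, MCD 2, MCD 5, limonin 4 or limonin 6 (largest adjusted p 0.0855). The SUMO ligase gene Pias2 rose from 3.16 ± 0.204 to 4.35 ± 0.735 FPKM (adjusted p = 0.0252, and 0.0745 without MCD 2). Stat2, Ptpn6 and Pias2 all lost their calls with no filter. Stat2 and Ptpn6 lost them at equal summed FPKM too, and Ptpn6 and Pias2 with a block for the replicate number. Cish, a target and inhibitor of STAT5, was not called (adjusted p = 0.0797).

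In the IL-17 signalling list, 4 of 8 tested genes fell and 4 were not called. The transcription factor gene Cebpd fell from 7.91 ± 2.50 to 3.86 ± 0.753 FPKM with no overlap between groups (log2 fold change -0.85 ± 0.17, adjusted p = 0.00441). The adaptor gene Traf2 fell from 4.32 ± 0.370 to 2.97 ± 0.594 FPKM (adjusted p = 0.016, and 0.051 without MCD 2). Zc3h12a, an RNase that degrades cytokine mRNAs, fell from 3.11 ± 0.898 to 1.81 ± 0.249 FPKM (adjusted p = 0.0157, and 0.0529 without MCD 2). Cebpb, named after its values were seen, fell from 141 ± 11.4 to 107 ± 17.8 FPKM (adjusted p = 0.0238), a call lost without MCD 2, MCD 4 or limonin 4 (largest adjusted p 0.0578). Cebpb was also not called with median-ratio scaling. Traf2 and Cebpb lost their calls at equal summed FPKM, Zc3h12a and Cebpb with no filter, and Traf2, Zc3h12a and Cebpb with a block for the replicate number. Lcn2, a secreted iron-binding protein induced by IL-17 and IL-6, was named after its values were seen and was not called. Lcn2 values spanned 30.4 to 138 FPKM in MCD and 29.9 to 566 FPKM with limonin. Of the other receptor partners, 3 of 4 tested fell (Csf1, Csf1r and Csf2rb), and the TSLP receptor gene Crlf2 was not called (adjusted p = 0.103).

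Markers of several cell types were lower with limonin, where 18.7% of all genes tested were called lower and 7.24% higher. Of 8 tested markers of recruited macrophages, 7 fell and 1 was not called, and the 10 listed summed to 170 to 675 FPKM in MCD and 84.8 to 194 FPKM with limonin. Without MCD 2 the number that fell was 2, and without MCD 1 or limonin 2 it was 4. All 5 tested B and plasma cell markers fell (9.60 to 15.5 and 3.85 to 8.93 FPKM summed over 9), as did 3 of 4 tested neutrophil markers (6.02 to 38.8 and 4.44 to 9.09 FPKM over 9). Without MCD 2, 2 of the B and plasma cell markers and 0 of the neutrophil markers were called lower. Without MCD 3, MCD 4, limonin 4 or limonin 6, 3 of the B and plasma cell markers were. In the fit with no filter, 3 recruited macrophage, 2 B and plasma cell and 0 neutrophil markers of those tested were called lower. The filter bears on these counts too, since the 5 MCD libraries alone could bring a marker over it. With a filter at a mean of 1 FPKM over all libraries, 6, 4 and 2 of them were called lower. With a filter at 0.5 FPKM in 5 libraries, 8, 5 and 4 were. Of 12 T and NK cell markers 1 was tested and was not called, and their sums were 4.47 to 10.1 and 2.63 to 4.87 FPKM. Of 8 tested Kupffer cell markers 0 fell, 1 rose and 7 were not called (sums of 29.1 to 177 and 66.0 to 97.9 FPKM), while 2 fell without MCD 1. Stellate cell and fibroblast markers fell in 8 of 10 cases, with sums of 79.4 to 154 and 50.5 to 75.2 FPKM, and all 6 tested cholangiocyte markers fell, with sums of 74.3 to 404 and 27.0 to 86.0 FPKM. With no filter, 6 of these stellate cell and fibroblast markers and 4 of these cholangiocyte markers were called lower. Spp1 is in both the cholangiocyte and the recruited macrophage list. Of 8 endothelial markers 1 rose and 7 were not called (20.3 to 38.9 and 27.5 to 39.3 FPKM), and that 1 kept its call only without MCD 3, MCD 4 or limonin 5 among the fits leaving out a library. The 1 tested mast cell and basophil marker was not called (4.42 to 6.46 and 3.57 to 7.27 FPKM over 6), and Cpa3, Mcpt4 and Tpsb2 were under 0.1 FPKM throughout. Among 10 hepatocyte markers 3 rose and 7 were not called, and 1 rose without MCD 1, MCD 2 or limonin 4, or with no filter. Without limonin 4, without limonin 5, and without both limonin 5 and 6, 1 hepatocyte marker was called lower. The part of cell composition in the changes of the interleukin genes was not tested.

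**Figure D5:**
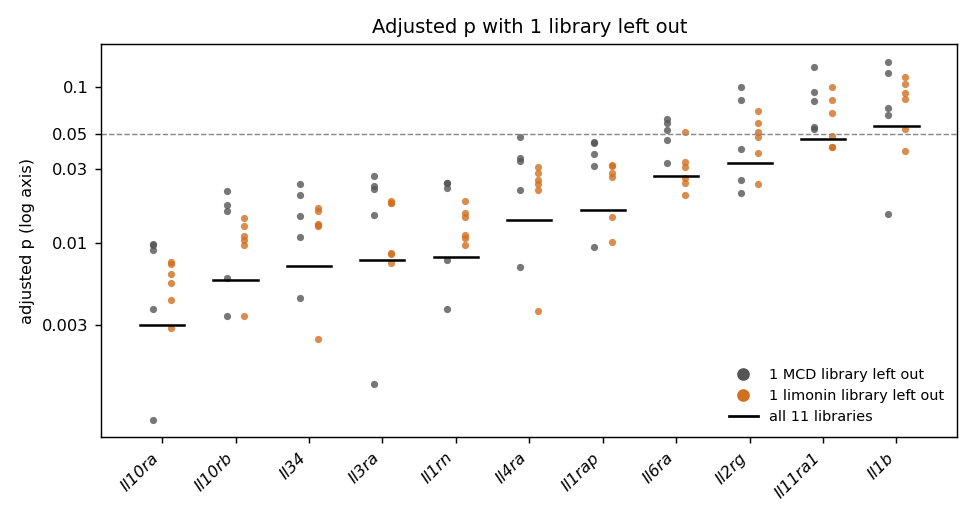
Adjusted p (limma, log axis) of the 10 interleukin genes called and of Il1b when each of the 11 libraries is left out in turn, with a black bar for all libraries and a dashed line at 0.05. Il10ra, Il10rb, Il34, Il3ra, Il1rn, Il4ra and Il1rap stay under the line, while points of Il6ra, Il2rg and Il11ra1 cross it.

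With each library left out in turn, 7 of the 10 calls held in all 11 fits. The largest adjusted p was 0.00991 for Il10ra, 0.0215 for Il10rb, 0.0241 for Il34, 0.0244 for Il1rn, 0.0268 for Il3ra, 0.0444 for Il1rap and 0.0479 for Il4ra. In the authors' deposited table, 10 interleukin genes had a q under 0.05 with a lower level in limonin and 3 with a higher one, against 7.44% and 8.57% of all genes. These included 7 of the 8 genes called lower here, all but Il11ra1 (deposited q = 0.458), and both called higher. The deposited q was also under 0.05 for Il1b, Il21r and Il17re, which were lower, and for Il22ra1, which was higher (q = 0.0231, 5.77e-06, 0.00103 and 0.0261). For Il23a and Il17d, called lower in the fit with no filter, it was not (q = 0.15 and 0.0737).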

How the data were processed

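Poly(A) RNA of mouse liver was sequenced in 11 dUTP-marked libraries, per the labels' protocols. The submitters' processing notes name StringTie 1.3.4d, HISAT2 2.0.4 and cutadapt 1.9, with the human build GRCh38 for a table of mouse identifiers. Per the file headers, the deposited values are FPKM, with the authors' fold ratio of group means and its log2. The authors also deposited a q-value and a p-value for every gene, from a test not given in the sources used here. Depth was estimated from FPKM steps in genes with 1 transcript, and without counts there are no counting intervals.

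Values were taken as log2(FPKM + 1). Of 31280 genes, 10489 reached 1 FPKM in 5 or more libraries and were tested in R 4.3.3 by limma 3.58.1 (two-sided, with trend and robust options, Benjamini-Hochberg over all genes tested, threshold 0.05), a procedure tested on simulated data. The labels number the libraries within a group without naming the animal of each, so p-values measure the spread between these libraries, which may be technical. Coordinates are from GENCODE M21 (GRCm38), which holds all 69 identifiers. Every tested interleukin gene, every other one with at least 0.5 FPKM in a library, up to 3 genes of each signalling list with the smallest p, and every tested receptor partner are named with values. The members and lists were chosen with earlier results of these data known. Alternatives were no filter, other filters, a pseudocount of 0.1, both together, median-ratio and quantile scaling, no trend, each library left out, the deposited q-values and a block for the replicate number. Leaving out both limonin 5 and 6, and scaling to equal summed FPKM, were added after seeing the data.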

Additional observations from a re-analysis of the deposited data

Results flagged for a closer look

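In 68 groups of values (34 interleukin genes in 2 groups, on the log2 scale of FPKM + 1), the highest or lowest library stood apart from its group by Dixon's criterion in 6; chance alone flags about 1 in 20 groups. Limonin 3 was the highest of its group for Il17rc at 23.0 FPKM, where the other limonin libraries were at 16.7 to 18.6 FPKM. It was also the highest for Il17re at 0.340 FPKM (others 0.0869 to 0.157 FPKM) and for Il21r at 0.256 FPKM (others 0.063 to 0.130 FPKM). Limonin 2 was the highest for Il18bp at 7.11 FPKM, with the others at 4.43 to 5.23 FPKM. MCD 2 was the highest for Il2rb at 1.49 FPKM, with the others at 0.837 to 0.960 FPKM. MCD 1 was the lowest for Il22ra1 at 0.363 FPKM, with the others at 0.682 to 0.791 FPKM.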

How the results depend on the processing

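Interleukin genes called lower numbered 5 to 10 and called higher 1 to 3 over the settings other than leaving out 1 library, against 8 and 2. The 8 and 2 are of 21 genes tested, while the deposited q (10 and 3) and the fits with no filter cover all 69. Those called lower were 5 after scaling to equal summed FPKM, and those called higher were 1 with no filter. With 1 library left out, 6 to 9 were lower and 1 to 2 higher. For the receptor partners and signalling genes, 5 to 13 were lower and 0 to 3 higher with 1 library left out. Over the other settings, 6 to 17 were lower and 0 to 9 higher. Those lower numbered 8 without both limonin 5 and 6 and 7 at equal summed FPKM. Those higher numbered 0 with no filter, 1 with no filter and a pseudocount of 0.1, 5 with median-ratio scaling, 7 with quantile normalization, 8 without both limonin 5 and 6, and 9 by the deposited q-values. Over all genes, 2716 were called, 1408 to 3062 with 1 library left out, and 5010 by the deposited q-values. Higher calls made up 27.9% of these, 48.1% with median-ratio scaling, 52.9% with quantile normalization and 49.6% at equal summed FPKM. The cause of these shifts was not tested.

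The labels give both groups the replicate numbers 1 to 5, but nothing says that a number pairs animals. Deviations of same-numbered libraries from their group means correlated at -0.235 to 0.204, and in 1 of 5 pairs the own number gave the best match. With the replicate block, which leaves out limonin 6, 1257 genes were called, 6 signalling genes were lower and 1 higher. Of the interleukin genes 6 were lower and 2 higher under that block; Il2rg and Il11ra1 were not called (adjusted p = 0.0943 and 0.22). Under the block 0 recruited macrophage and 0 neutrophil markers were lower, and 0 hepatocyte markers higher.

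Signs reversed only in genes that were not called. Il18 was at 0.00882 with quantile normalization and 0.00041 at equal summed FPKM, and Il33 at 0.0868 with quantile normalization. Il17rb was at 0.0169 with median-ratio scaling, 0.0559 with quantile normalization, 0.0250 without both limonin 5 and 6 and 0.0352 at equal summed FPKM. With 1 library left out, Il17rb ran from -0.140 to 0.0510 (without MCD 1), Il13ra1 from -0.0547 (without limonin 2) to 0.177, and Il15ra from -0.0124 (without limonin 1) to 0.156, with -0.0014 without limonin 4. FPKM near the value of 1 fragment, as in the lowest genes, limit what can be compared.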
